A study of Homo sapiens with 12 samples.

Results

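The 10 genes described here are regulators and markers of the mesenchymal transition, taken by name from a table of 20263 genes. SNAI1, SNAI2, TWIST1, TWIST2, ZEB1 and ZEB2 encode transcription factors that drive the transition, and VIM, CDH2, CD44 and CHI3L1 are markers of the mesenchymal state. They were measured by mRNA sequencing in U-87 MG (U87), an established human glioblastoma cell line, kept in 1% O2 in every group, so that no library from cells in normal oxygen stands beside them. The groups were cells with the empty vector (vector), cells with HIF1α knocked out (HIF1α-ko), cells with HIF2α knocked out (HIF2α-ko) and cells with both knocked out (HIF1α/2α-ko), with 3 libraries in each of the 4 groups and 72 h of hypoxia per the labels (the methods of the study give a shorter time for mRNA work in general). How the knockouts were made, and whether each group is 1 clone or a mixed population, is not given in the sources used here, and nothing says that the 3 libraries of a group came from separate cultures, so each p measures only the spread between these libraries.

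In the epithelial to mesenchymal transition, factors of the SNAIL, ZEB and TWIST families bind E-box sequences in the promoters of epithelial genes such as that of E-cadherin and repress them, while genes of the cytoskeleton, of N-cadherin and of the matrix are turned on. Glioma cells are not epithelial, yet the same factors are known there for invasion, and a mesenchymal expression class of glioblastoma is recognised by genes that include CD44 and CHI3L1. HIF1α and HIF2α are the oxygen-regulated subunits of the hypoxia-inducible factors. They pair with HIF1β and bind hypoxia response elements, whose core is ACGTG or GCGTG.

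The values are TPM, a measure of transcript abundance in which the reads of a gene are divided by its length and each library is scaled to the same total, so levels can be set side by side between genes. The columns summed to between 999955 and 999982, the depth of the libraries is unknown, and no counting error can be given. Fold changes were fitted with limma to log2(TPM + 1), a scale that understates the change of low genes, and a call means an adjusted p under 0.05 over the 11731 genes tested in that comparison. No scaling between libraries beyond the fixed total is stated. On the log2 scale, the median of all tested genes lay at 0.18 for HIF1α-ko, -0.04 for HIF2α-ko and 0.21 for HIF1α/2α-ko against vector. Why these medians lay away from 0 was not tested, and each fold change can be read against them. Replicate 1 stood apart from the other libraries of its group in all 4 groups, with Pearson's r of log2 values across genes of 0.966 to 0.985 against 0.989 to 0.992 between replicates 2 and 3, and it lay farthest from them in vector (0.968 and 0.966). HIF1A, the gene of HIF1α, was at 124 ± 23.5 TPM in vector and 48.5 ± 9.35 TPM in HIF1α-ko, but at 75.5 ± 11.9 TPM in HIF1α/2α-ko, beside 86.8 ± 18.1 TPM in HIF2α-ko, where it was not targeted. HIF1A in the dual knockout was above HIF1α-ko by 0.64 on the log2 scale (limma adjusted p = 0.0287) and differed from HIF2α-ko by -0.19 (adjusted p = 0.453, 95% confidence interval -0.62 to 0.23). EPAS1, the gene of HIF2α, was at 322 ± 31.5 TPM in vector, 107 ± 17.0 TPM in HIF2α-ko and 117 ± 14.4 TPM in HIF1α/2α-ko (mean ± SD, n = 3). Both targeted mRNAs were thus lower than in vector in their knockouts without being absent. Of the defining glial markers, NES, FABP7, EGFR and ALDH1L1 were at 1 TPM or more in all 12 libraries, SOX2, GFAP and S100B were below 1 TPM in each, and AQP4 was listed at 0. CDKN2A and CDKN2B, which U-87 MG lacks, were listed at 0 in all 12 libraries. Of the immune cell markers, PTPRC, which defines leukocytes, was at most 0.033 TPM, while CSF1R was at 3.20 to 7.34 TPM and CD68 at 587 to 1633 TPM in all 12 libraries. Of the 6 endothelial markers, CDH5 reached 3.63 TPM, VWF 2.93 TPM, KDR 1.31 TPM and PECAM1 1.19 TPM, with 1 TPM or more in 6, 5, 2 and 1 libraries in this order, and TEK and CLDN5 stayed below 1 TPM.

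Promoter sequences from RefSeq (GRCh38.p14) were matched by symbol for 7 of the 10 genes, namely VIM, CD44, CDH2, TWIST2, ZEB1, ZEB2 and CHI3L1. The 5 genes with 1 listed start (VIM, CD44, TWIST2, ZEB2 and CHI3L1) were searched from 250 bases before to 50 bases after the start for ACGTG and GCGTG, the core of the hypoxia response element, and for CAGGTG, the E-box bound by SNAIL and ZEB factors, on both strands. ZEB2 held 4 hypoxia cores in its window, where 48.4% of 35116 RefSeq promoter windows of the same length held at least 1 and 4.4% held at least 4. A CACGTG would count as a core on both strands, and none of the 4 in ZEB2 is of that kind. CHI3L1 held no hypoxia core and 1 CAGGTG, a motif found in 20.6% of all windows. The 250 bases before the start are shown for ZEB2 and CHI3L1, the genes with the most and the fewest hypoxia cores among those searched, and for VIM, the most abundant of the 10 mRNAs. They are written 5′ to 3′ on the strand of the gene, and capitals mark the hypoxia cores (CACGT and CACGC are the cores read on the other strand) and the E-box.
ZEB2, chr2:144520120-144520369, minus strand: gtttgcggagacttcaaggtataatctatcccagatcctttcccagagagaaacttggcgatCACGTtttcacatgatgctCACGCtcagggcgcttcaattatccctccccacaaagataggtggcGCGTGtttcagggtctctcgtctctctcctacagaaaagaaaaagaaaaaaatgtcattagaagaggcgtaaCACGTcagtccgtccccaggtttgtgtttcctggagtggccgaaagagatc
CHI3L1, chr1:203186705-203186954, minus strand: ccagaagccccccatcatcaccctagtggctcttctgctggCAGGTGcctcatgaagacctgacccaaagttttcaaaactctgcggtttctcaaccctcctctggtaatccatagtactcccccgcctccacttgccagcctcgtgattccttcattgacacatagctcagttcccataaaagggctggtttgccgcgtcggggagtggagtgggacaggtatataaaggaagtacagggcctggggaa
VIM, chr10:17227991-17228240, plus strand: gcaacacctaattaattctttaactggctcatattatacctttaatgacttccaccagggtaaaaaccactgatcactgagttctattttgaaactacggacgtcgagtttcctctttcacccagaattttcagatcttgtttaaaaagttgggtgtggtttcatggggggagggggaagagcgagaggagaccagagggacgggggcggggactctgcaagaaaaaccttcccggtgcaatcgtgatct
Counted back from the start, the cores of ZEB2 begin at -188, -169, -123 and -51, and the E-box of CHI3L1 begins at -209. The stretch shown for VIM has no capitals, since its 1 core begins at position 8 after the start. CD44 held 1 core at -215 and TWIST2 held 1 at position 45 after its start. A match describes the letters only, and no measurement of binding was made here.

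Among the regulators, 1 member of each family dominated. SNAI2, ZEB2 and TWIST1 were at 52.2 to 310.5, 24.3 to 68.4 and 25.2 to 87.5 TPM over the 12 libraries, and their partners SNAI1, ZEB1 and TWIST2 at 0.54 to 5.75, 0.39 to 2.58 and 0.75 to 6.65 TPM. Within each library, SNAI2 was between 21.4 and 393 times SNAI1, ZEB2 between 9.75 and 172 times ZEB1, and TWIST1 between 9.55 and 56.4 times TWIST2. In both the SNAIL and the ZEB family the ratio was smallest in HIF1α/2α-ko, where the abundant member was on average below vector and the scarce member above it.

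SNAI2 (ENSG00000019549, GRCh38 chr8:48917604-48921740, minus strand) encodes SLUG, a zinc finger repressor of E-cadherin. It was at 111, 211 and 310.5 TPM in vector replicates 1, 2 and 3, at 72.2, 92.4 and 79.9 TPM in HIF1α-ko, at 52.2, 61.4 and 61.0 TPM in HIF2α-ko and at 135, 83.3 and 92.9 TPM in HIF1α/2α-ko. All 6 libraries of the single knockouts lay below the lowest vector library, while HIF1α/2α-ko replicate 1 lay above it, so the dual knockout overlapped with vector. By limma, SNAI2 fell in each knockout, with log2 fold changes of -1.25 for HIF1α-ko (standard error 0.30, adjusted p = 0.0101), -1.72 for HIF2α-ko (adjusted p = 0.00525) and -0.93 for the dual knockout (adjusted p = 0.0214). Both calls in the single knockouts were kept under all 21 alternatives, with changes between -1.65 and -0.91 in HIF1α-ko and between -2.12 and -1.38 in HIF2α-ko. The call in HIF1α/2α-ko was lost in a fit of the groups compared only (adjusted p = 0.0641) and when vector replicate 2 (0.0648), vector replicate 3 (0.0941), dual-knockout replicate 2 (0.0825) or dual-knockout replicate 3 (0.0665) was left out. In these bulk samples, fewer cells with a transcript and less of it per cell cannot be told apart, here and for each gene below.

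The interaction term subtracts both single-knockout changes from the dual-knockout change and asks whether the knockouts add up on the log2 scale. For SNAI2 it was 2.04 (standard error 0.42, 95% confidence interval 1.14 to 2.95, limma adjusted p = 0.00625), the largest of the 10 genes, and it was called under all 20 alternatives, between 1.70 and 2.44. Loss of HIF2α thus went with a change of -1.72 in SNAI2 when HIF1α was intact and of 0.32 (adjusted p = 0.453) when HIF1α was knocked out. HIF1A mRNA itself was higher in the dual knockout than in HIF1α-ko by 0.64 (limma adjusted p = 0.0287). Its interaction was also called (1.15, adjusted p = 0.0131). The part of this in the SNAI2 difference was not tested. The dual knockout exceeded HIF2α-ko in SNAI2 by 0.80 (adjusted p = 0.0429), a call that neither rescaling of the libraries kept (adjusted p = 0.213 with median ratio scaling and 0.137 with quantile normalization), and that was lost without any 1 of 9 libraries (adjusted p at most 0.143).

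SNAI1 (ENSG00000124216, chr20:49982999-49988886, plus strand) encodes SNAIL, the founding repressor of this family. It was scarce, at 1.6, 0.54 and 0.92 TPM in vector, 2.10, 1.89 and 1.48 TPM in HIF1α-ko, 1.48, 0.70 and 0.99 TPM in HIF2α-ko and 5.75, 2.44 and 4.34 TPM in HIF1α/2α-ko. The 3 dual-knockout libraries were above all others, and the single knockouts overlapped with vector. SNAI1 rose in HIF1α/2α-ko by 1.34 against vector (standard error 0.26, limma adjusted p = 0.00122) and by 1.30 against HIF2α-ko (adjusted p = 0.00153), and these calls were kept under all 20 and 21 alternatives. Its rise of 0.83 against HIF1α-ko (adjusted p = 0.0316) was lost with a pseudocount of 0.1 (adjusted p = 0.0660), with median ratio scaling (0.0501), without the filter on low genes (0.0535) and without HIF1α/2α-ko replicate 1 (0.0997), among others. In HIF1α-ko the change from vector was 0.51 (adjusted p = 0.159) and in HIF2α-ko 0.04 (adjusted p = 0.943).

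TWIST1 (ENSG00000122691, chr7:19020991-19117672, minus strand) and TWIST2 (ENSG00000233608, chr2:238848032-238910543, plus strand) encode basic helix-loop-helix factors that bind E-boxes as dimers. TWIST1 was at 37.2, 42.4 and 41.6 TPM in vector, 63.5, 87.5 and 57.2 TPM in HIF1α-ko, 27.7, 25.2 and 28.0 TPM in HIF2α-ko and 50.1, 33.4 and 41.5 TPM in HIF1α/2α-ko. The HIF1α-ko libraries were above all the others and the HIF2α-ko libraries below all the others, with vector and the dual knockout between them. By limma, TWIST1 rose in HIF1α-ko by 0.74 (standard error 0.18, adjusted p = 0.0103), a call lost with median ratio scaling (0.55, adjusted p = 0.0694), and changed by -0.57 in HIF2α-ko (adjusted p = 0.0606) and by 0.03 in HIF1α/2α-ko (adjusted p = 0.914, 95% confidence interval -0.36 to 0.41). The dual knockout lay below HIF1α-ko, with a difference of -0.72 (adjusted p = 0.0101). It lay above HIF2α-ko by 0.59 (adjusted p = 0.0161), but not past the threshold after either rescaling (0.217 and 0.258). The interaction was -0.15 (adjusted p = 0.698, 95% confidence interval -0.70 to 0.39). The single knockouts were compared directly after their values had been seen, and TWIST1 was higher in HIF1α-ko than in HIF2α-ko by 1.31 (standard error 0.18, adjusted p = 0.000363), with a call under all 22 alternatives.

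TWIST2 was at 3.11, 0.75 and 1.18 TPM in vector, 6.65, 4.69 and 3.60 TPM in HIF1α-ko, 2.63, 1.92 and 1.84 TPM in HIF2α-ko and 2.95, 2.09 and 2.40 TPM in HIF1α/2α-ko. As with TWIST1, each HIF1α-ko library was above every library of the other groups. TWIST2 rose in HIF1α-ko by 1.23 (standard error 0.29, limma adjusted p = 0.00939), and this call was kept under all 20 alternatives. Its change in HIF2α-ko was 0.31 (adjusted p = 0.524) and that of the dual knockout 0.47 (adjusted p = 0.197). The latter was called without vector replicate 1, which had the highest vector value (0.83, adjusted p = 0.0111). The dual knockout was 0.76 below HIF1α-ko on the log2 scale, which did not pass the threshold (adjusted p = 0.0658). It did so under 6 alternatives, namely a fit of the groups compared only (adjusted p = 0.0398), the replicate number as a block in the 3 knockout groups (0.00240) or in all 4 groups (0.0139), and without vector replicate 1 (0.0144), vector replicate 2 (0.0476) or replicate 1 of any group (0.0130).

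ZEB2 (ENSG00000169554, chr2:144364364-144524583, minus strand), a zinc finger and homeodomain repressor also called SIP1, is the gene whose promoter held 4 hypoxia cores. It was at 50.3, 68.4 and 66.7 TPM in vector, 25.7, 31.4 and 27.7 TPM in HIF1α-ko, 33.9, 56.6 and 33.9 TPM in HIF2α-ko and 24.3, 25.2 and 31.0 TPM in HIF1α/2α-ko. All libraries of HIF1α-ko and HIF1α/2α-ko lay below all vector libraries, and HIF2α-ko replicate 2 lay within the vector range. ZEB2 fell in HIF1α-ko by -1.09 (standard error 0.20, limma adjusted p = 0.00300) and in HIF1α/2α-ko by -1.17 (adjusted p = 0.000573), and both calls were kept under all 21 alternatives. In HIF2α-ko its change of -0.59 missed the threshold (adjusted p = 0.0826) and passed it without HIF2α-ko replicate 2 (-0.84, adjusted p = 0.0300) or vector replicate 1 (-0.73, adjusted p = 0.0311). The dual knockout differed from HIF1α-ko by -0.08 (adjusted p = 0.813, 95% confidence interval -0.52 to 0.37) and from HIF2α-ko by -0.58 (adjusted p = 0.0347). The latter call was kept under 17 of 22 alternatives. It was lost without HIF2α-ko replicate 2 (-0.33, adjusted p = 0.162) and without HIF1α/2α-ko replicate 1 (0.0848) or 2 (0.0978), among others. ZEB2 shares 1299 of its 25058 annotated exon bases with the antisense gene ZEB2-AS1, and since the strand setting of the counting is not given, reads of both cannot be told apart there.

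ZEB1 (ENSG00000148516, chr10:31318495-31529814, plus strand), the related repressor and a textbook antagonist of the epithelial microRNAs of the miR-200 family, reached 1 TPM in the dual knockout only. Its values were 0.68, 0.81 and 0.39 TPM in vector, 0.71, 0.70 and 0.64 TPM in HIF1α-ko, 0.57, 0.51 and 0.48 TPM in HIF2α-ko and 1.36, 2.58 and 1.41 TPM in HIF1α/2α-ko. The dual-knockout libraries were above all others, and the other groups overlapped except that HIF2α-ko was below HIF1α-ko. Because a gene had to reach 1 TPM in 3 libraries to be tested, ZEB1 entered the test through the group where it was high, and a difference in its favour was built into its entry. With that limit, its fold change in HIF1α/2α-ko was 0.76 against vector (standard error 0.17, limma adjusted p = 0.00357), 0.70 against HIF1α-ko (adjusted p = 0.0103) and 0.85 against HIF2α-ko (adjusted p = 0.00182). Without any filter, the adjusted p of all 3 stayed under the threshold. The interaction was 0.79 (adjusted p = 0.0402) and was lost with a pseudocount of 0.1 (adjusted p = 0.0535) and without any 1 of 7 libraries (at most 0.0891). ZEB1 shares 366 exon bases with ZEB1-AS1 on the other strand.

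**Figure D1:**
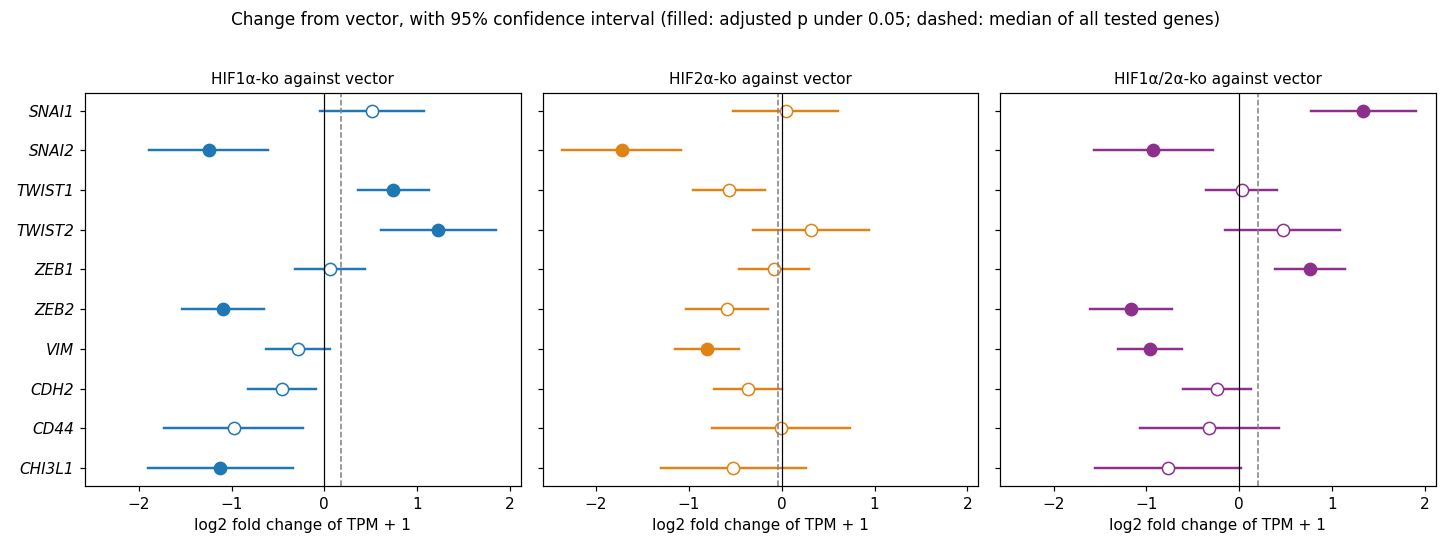
Log2 fold change of TPM + 1 from vector (horizontal axes) for each gene in the single knockouts and the dual knockout, with 95% confidence intervals from limma, filled points for an adjusted p under 0.05 and a dashed line at the median of all tested genes. SNAI2 is called lower in all 3 knockouts, ZEB2 in HIF1α-ko and HIF1α/2α-ko, VIM in HIF2α-ko and HIF1α/2α-ko, and SNAI1 and ZEB1 are called higher in HIF1α/2α-ko. ZEB1 entered the test only through its level in HIF1α/2α-ko.

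VIM (ENSG00000026025, chr10:17228259-17237593, plus strand) encodes vimentin, the intermediate filament protein of mesenchymal and glial cells. It ranked between 5 and 15 among all genes by TPM and took 0.564% to 1.47% of the total of a library. Its values were 11593, 12725 and 14690.3 TPM in vector, 9610.4, 11409.9 and 10892 TPM in HIF1α-ko, 6675, 7682 and 7901 TPM in HIF2α-ko and 5964, 8711 and 5635 TPM in HIF1α/2α-ko. All libraries of HIF2α-ko and HIF1α/2α-ko lay below all of vector and HIF1α-ko, and HIF1α-ko in turn lay below vector with no overlap. VIM fell in HIF2α-ko by -0.81 (standard error 0.16, limma adjusted p = 0.00858) and in HIF1α/2α-ko by -0.96 (adjusted p = 0.000412), and in HIF1α-ko its change was -0.29 (adjusted p = 0.197, 95% confidence interval -0.63 to 0.06). The dual knockout was lower than HIF1α-ko by -0.68 (adjusted p = 0.00799) and differed from HIF2α-ko by -0.16 (adjusted p = 0.451), a sign that quantile normalization turned (0.14, adjusted p = 0.493). The calls against vector were kept under all 21 alternatives and that against HIF1α-ko under all 22. None of these alternatives set a minimum on the size of a change. The interaction was 0.13 (adjusted p = 0.714, 95% confidence interval -0.36 to 0.62), so no departure from added log2 changes was detectable for VIM. In the direct comparison of the single knockouts, VIM was higher in HIF1α-ko than in HIF2α-ko by 0.52 (limma adjusted p = 0.0329). This call was kept under 13 of 22 alternatives, and median ratio scaling was among those that lost it (0.27, adjusted p = 0.284). VIM shares 641 of its 5158 exon bases with VIM-AS1 and 619 with AL133415.1, both antisense.

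CHI3L1 (ENSG00000133048, chr1:203178931-203186749, minus strand) encodes YKL-40, a secreted glycoprotein and a serum marker of glioblastoma. It was at 308, 948 and 977 TPM in vector, 228, 348 and 349 TPM in HIF1α-ko, 380, 504 and 503 TPM in HIF2α-ko and 314, 414 and 446 TPM in HIF1α/2α-ko. Replicate 1 was the lowest library in each of the 4 groups, and vector replicate 1, unlike the other vector libraries, lay below all libraries of HIF2α-ko and HIF1α/2α-ko. CHI3L1 fell in HIF1α-ko by -1.12 (standard error 0.36, limma adjusted p = 0.0388), beside a HIF2α-ko change of -0.52 (adjusted p = 0.386) and a dual-knockout change of -0.77 (adjusted p = 0.10). These calls turned on single libraries. The call in HIF1α-ko was lost without the filter (0.0765), in a fit of the groups compared only (0.0876) and without any 1 of 7 libraries, namely each of HIF1α-ko and replicates 2 and 3 of vector and of HIF2α-ko (adjusted p at most 0.151). Without vector replicate 1, CHI3L1 was called for HIF2α-ko (-1.07, adjusted p = 0.00515) and for the dual knockout (-1.31, adjusted p = 0.000466), and so was its interaction (1.42, adjusted p = 0.00368, against 0.88 and 0.243 with all libraries). With the replicate number as a block in the 3 knockout groups, the dual knockout was above HIF1α-ko by 0.35 (adjusted p = 0.00395, against 0.501 without the block) and below HIF2α-ko by -0.24 (adjusted p = 0.0147, against 0.612).

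CD44 (ENSG00000026508, chr11:35138870-35232402, plus strand), the cell-surface receptor for hyaluronan, ranged from 681 to 1062 TPM in vector, 399 to 481 TPM in HIF1α-ko, 499 to 1412 TPM in HIF2α-ko and 508 to 1080.4 TPM in HIF1α/2α-ko. All HIF1α-ko libraries lay below every library of the other groups, but the change of -0.98 (standard error 0.34) did not pass the threshold (limma adjusted p = 0.0536). It did so with median ratio scaling (-1.18, adjusted p = 0.0174), in a fit of the groups compared only (adjusted p = 0.0129) and in 4 of the 12 fits that left out 1 library. In HIF2α-ko the change was -0.01 (adjusted p = 0.993, 95% confidence interval -0.76 to 0.74) and in HIF1α/2α-ko -0.32 (adjusted p = 0.467), with SDs of 462 and 318 TPM over the 3 libraries. Set directly against HIF2α-ko, HIF1α-ko was lower by 0.97 on the log2 scale, with an adjusted p of 0.0566 by limma, or 0.0324 with the replicate block.

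CDH2 (ENSG00000170558, chr18:27950966-28177446, minus strand), which encodes N-cadherin, was the least variable of the 10 genes, with its highest library at 2.0 times its lowest. It ranged from 8.34 to 12.7 TPM in vector, 6.33 to 8.36 TPM in HIF1α-ko, 7.24 to 8.02 TPM in HIF2α-ko and 8.10 to 9.25 TPM in HIF1α/2α-ko. Its changes from vector of -0.46 in HIF1α-ko (limma adjusted p = 0.0636), -0.36 in HIF2α-ko (0.19) and -0.24 with both lost (0.258) did not pass the threshold. With either rescaling the first did, at -0.63 (adjusted p = 0.0227) and -0.64 (0.0265). CD44 shares 84, CDH2 136 and TWIST1 141 exon bases with antisense genes.

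Counted over the 10 genes, HIF1α-ko had 2 calls higher than vector (TWIST1 and TWIST2) and 3 lower (SNAI2, ZEB2 and CHI3L1), where 17.3% of all tested genes were called higher and 8.77% lower. HIF2α-ko had 0 higher and 2 lower (SNAI2 and VIM), against 5.07% and 5.89% of all genes. The unadjusted p of limma was under 0.05 for 4 genes there, each with a negative change (SNAI2, VIM, TWIST1 and ZEB2). Here the number rested on vector replicate 1, without which 5 genes were called lower. HIF1α/2α-ko had 2 higher (SNAI1 and ZEB1) and 3 lower (SNAI2, ZEB2 and VIM), against 31.8% and 14.8%. In each of these comparisons the share called higher was near or below that of all genes and the share called lower above it. These shares rest on at most 3 of the 10 genes in a direction. The genes were chosen with earlier results of these data known, so the shares are a description only. The median of the 10 fold changes, beside that of all genes, was -0.37 and 0.18 for HIF1α-ko, -0.44 and -0.04 for HIF2α-ko, and -0.28 and 0.21 for HIF1α/2α-ko. Without HIF1α/2α-ko replicate 2 or 3 the 5 calls of the dual knockout became 3. The balance over all genes moved with the scaling. Where 2031 of all tested genes were called higher and 1029 lower in HIF1α-ko as deposited, median ratio scaling gave 1278 and 1527, with 1 of the 10 genes higher and 5 lower, while quantile normalization gave 1581 and 1507, with 2 and 4 of the 10. For HIF2α-ko the numbers over all genes, 595 and 691, became 753 and 579 by the first method and 787 and 699 by the second, with 0 and 2 of the 10 genes in each. In HIF1α/2α-ko, 3732 higher and 1741 lower became 2854 and 2600, and 2829 and 2848, with 2 and 4 of the 10 genes in each. The 3 comparisons share the vector libraries, and ZEB1 counts here with the limit given above. Without ZEB1, 4 genes were called in HIF1α/2α-ko.

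Against HIF1α-ko, the dual knockout had 2 genes higher (SNAI1 and ZEB1) and 2 lower (TWIST1 and VIM), where 17.7% and 10.6% of all genes were called. Without HIF1α/2α-ko replicate 1 or 3 the 4 calls became 2, and with the replicate block on the 3 knockout groups they became 6, with CHI3L1 and TWIST2 added. Against HIF2α-ko it had 4 higher (SNAI1, SNAI2, TWIST1 and ZEB1) and 1 lower (ZEB2), where 33.5% and 12.9% were called, and these 5 calls became 1 without HIF1α/2α-ko replicate 1, 2 without HIF2α-ko replicate 2 and 3 without HIF1α/2α-ko replicate 2 or 3. With either rescaling the dual knockout had 1 higher and 2 lower against HIF1α-ko and 2 higher and 1 lower against HIF2α-ko, where the calls over all genes against HIF2α-ko went from 3933 higher and 1509 lower to 2748 and 2468 by median ratio and 2736 and 2614 by quantile scaling, and those against HIF1α-ko from 2076 and 1246 to 2011 and 1410, and 1822 and 1826. ZEB1 counts in these comparisons and in the interaction with the limit given above. Without ZEB1, 3 genes were called against HIF1α-ko, 4 against HIF2α-ko and 1 for the interaction. ZEB1 was not tested when a dual-knockout library was left out. The interaction was called for 2 genes, SNAI2 and ZEB1, both above 0, where 13.2% of all genes were called above and 7.35% below (1552 and 862, which became 1376 and 1034, and 1350 and 1312, with the rescalings in the same order). The unadjusted p was under 0.05 for 4 genes, these and CDH2 above 0 and TWIST2 below 0. Without vector replicate 1, 4 genes had a called interaction, and without any other library except vector replicate 3 only 1, SNAI2, did. The direct comparison of HIF1α-ko with HIF2α-ko had 3 genes higher (TWIST1, TWIST2 and VIM) and 0 lower, where 17.8% and 7.37% were called, and the replicate block added CD44, CHI3L1 and ZEB2 as lower. Which genes passed the threshold in this comparison depended on the scaling, while no called value changed sign. With median ratio scaling the comparison had 1 higher (TWIST1) and 2 lower (CD44, adjusted p = 0.0158, and ZEB2, adjusted p = 0.0203), and with quantile normalization 2 higher (TWIST1 and VIM) and 1 lower (ZEB2, adjusted p = 0.0271), with TWIST2 lost in both (0.105 and 0.118). Over all genes, 2084 higher and 865 lower became 1032 and 1300 by median ratio and 1345 and 1254 by quantile scaling. Only TWIST1 was left without HIF1α-ko replicate 2 or HIF2α-ko replicate 2 or 3. With no block, the unadjusted p was under 0.05 for 5 of the 10 genes in this comparison.

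**Figure D2:**
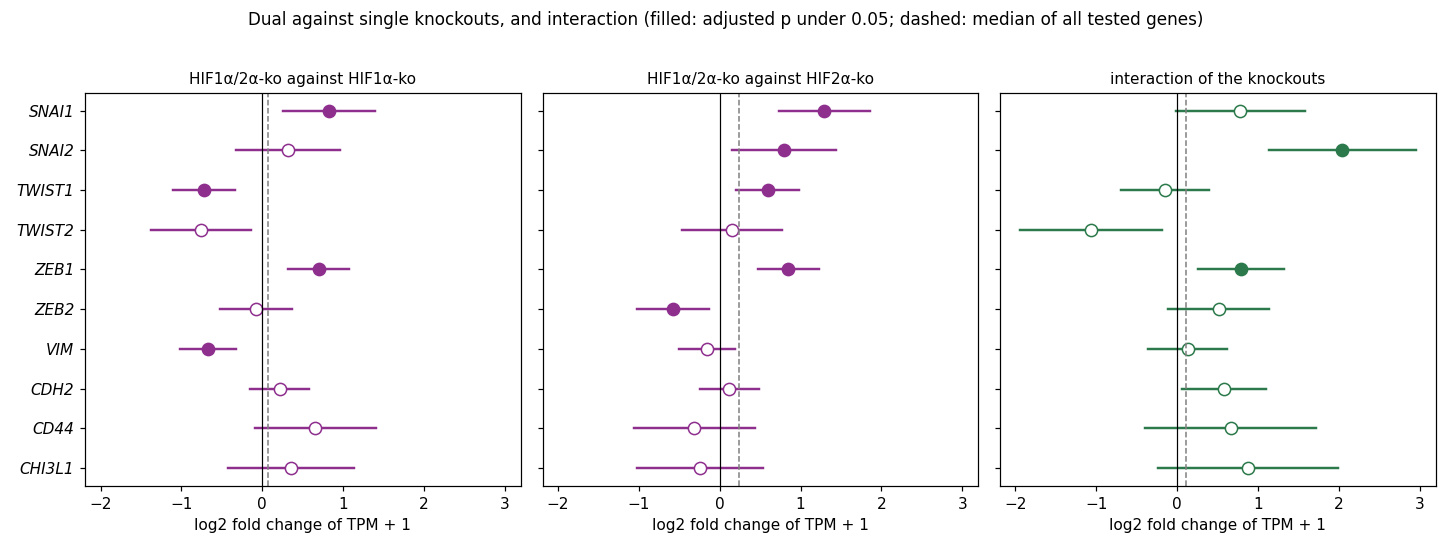
Log2 fold change of TPM + 1 of HIF1α/2α-ko against HIF1α-ko and against HIF2α-ko, and the interaction of the knockouts (horizontal axes), for each of the 10 genes, with 95% confidence intervals, filled points for a limma adjusted p under 0.05 and a dashed line at the median of all tested genes. SNAI1 and ZEB1 are called higher in both panels of the dual knockout, TWIST1 is called lower against HIF1α-ko and higher against HIF2α-ko, and the interaction of SNAI2 lies farthest from 0 at 2.04. ZEB1 entered the test only through its level in HIF1α/2α-ko.

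Genes that these factors act on or with were followed as lists, whose counts can be read against the shares of all tested genes called higher and lower given above (17.3% and 8.77% for loss of HIF1α, 5.07% and 5.89% for loss of HIF2α, 31.8% and 14.8% for loss of both). Of 19 epithelial genes, the usual targets of repression, 13 were too low to be tested, among them CDH1, which encodes E-cadherin, at most 0.198 TPM, and GRHL2, OVOL1 and OVOL2, listed at 0 in all libraries. The 6 tested had 1 higher and 1 lower in HIF1α-ko, with 2 higher and 0 lower for HIF2α-ko (CLDN7 and CLDN4), and 0 higher and 2 lower with both knocked out. MUC1, a transmembrane mucin that HIF1α is known to activate, was the lower gene in HIF1α-ko, with 29.5 ± 1.73 TPM in vector, 11 ± 0.486 TPM in HIF1α-ko, 39.2 ± 7.36 TPM in HIF2α-ko and 8.69 ± 2.41 TPM with both knocked out (mean ± SD, n = 3). Its log2 change was -1.35 in HIF1α-ko (limma adjusted p = 0.000760) and -1.69 with both knocked out (adjusted p = 3.12e-05). KRT19, a keratin, was lower in HIF1α/2α-ko by -0.67 (adjusted p = 0.0456) at 0.712 TPM against 1.70 in vector. With no filter, 16 epithelial genes were tested, and the dual knockout had 2 higher and 2 lower. The calls of this list are too few to set against the shares of all genes. The higher call in HIF1α-ko was lost with either rescaling, with no filter, in a fit of the groups compared only and without any 1 of 8 libraries, the 2 in HIF2α-ko became 1 without any 1 of 5 libraries, and the 2 in the dual knockout became 1 without any 1 of 8.

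The mesenchymal effectors, 25 tested genes of the matrix, its proteases and the cytoskeleton, had calls in both directions in the single knockouts and only lower ones in the dual knockout. They had 5 higher and 3 lower in HIF1α-ko, 1 and 1 for HIF2α-ko, and 0 and 12 with both knocked out, that is 0% and 48% in the dual knockout beside 31.8% and 14.8% of all genes, and their median in HIF1α/2α-ko was -0.41 beside 0.21 for all genes. COL1A1, a chain of type I collagen, was at 21.0 ± 5.23 TPM in vector, 22.2 ± 1.01 TPM in HIF1α-ko, 20.3 ± 3.51 TPM in HIF2α-ko and 6.65 ± 1.09 TPM in HIF1α/2α-ko, and fell in the last by -1.51 (limma adjusted p = 6.68e-05). MMP2, a gelatinase of the basement membrane, was at 8350.3 TPM in vector and 5263 TPM in HIF1α/2α-ko, a fall of -0.67 (adjusted p = 0.000396). With only vector and the dual knockout in the fit, the 12 lower effectors became 7, with 0 higher. The 8 calls among them in HIF1α-ko became 2 without vector replicate 2 or 3, 3 without HIF1α-ko replicate 2 or 3 and 5 without HIF1α-ko replicate 1, and the 2 in HIF2α-ko became 4 when replicate 1 of vector or of HIF1α/2α-ko was left out, 1 when replicate 2 of HIF1α-ko or replicate 2 or 3 of vector was, and 0 when replicate 2 or 3 of HIF2α-ko was. The 27 tested markers of the mesenchymal glioma signature, some of which are also effectors, had 8 higher and 3 lower in HIF1α-ko, 3 and 3 for HIF2α-ko, and 5 and 10 with both knocked out (18.5% and 37.0%). Leaving out replicate 3 of HIF1α-ko turned their 11 calls there into 5, leaving out replicate 2 of either HIF1α-ko or vector gave 6, and leaving out replicate 3 of vector gave 7. The 6 calls for HIF2α-ko became 10 when vector replicate 1 was left out and 3 when vector replicate 3 or replicate 2 or 3 of HIF2α-ko itself was. LOX, lysyl oxidase, which cross-links collagen and is a known HIF target, was at 975 ± 162 TPM in vector, 836 ± 49 TPM in HIF1α-ko, 518 ± 126 TPM in HIF2α-ko and 105 ± 29 TPM in HIF1α/2α-ko. It fell by -0.92 in HIF2α-ko (adjusted p = 0.0153) and by -3.22 in HIF1α/2α-ko (adjusted p = 7.89e-07). Summed immune cell markers were also lower in HIF1α/2α-ko than in vector, with 1288 to 1638 TPM in vector, 820.4 to 1067 TPM in HIF1α-ko, 1014 to 1228 TPM in HIF2α-ko and 590.5 to 821 TPM in HIF1α/2α-ko. Of these 7 genes CD68 carried nearly the whole sum while PTPRC, CD3E and AIF1 were below 1 TPM in every library. CD68 was lower on average in HIF1α-ko (943 TPM) than in HIF2α-ko (1083 TPM), the reverse of LOX. The part of these markers in the falls was not tested.

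**Figure D3:**
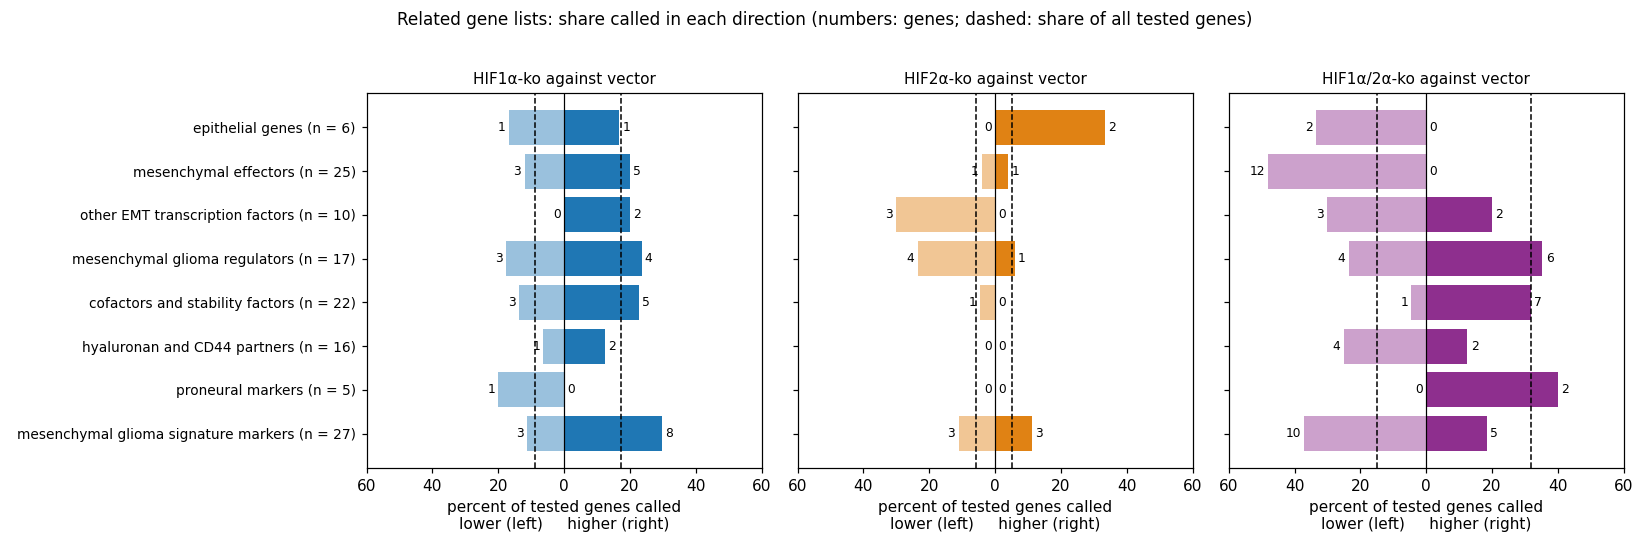
Share of tested genes called lower (left, light) and higher (right, dark) than vector in each of 8 related gene lists (horizontal axes in percent, adjusted p under 0.05 by limma), with the number of genes at each bar and dashed lines at the shares of all tested genes. In HIF1α/2α-ko 12 of 25 mesenchymal effectors and 10 of 27 signature markers are called lower, and 0 of the effectors higher.

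Other transcription factors of the transition had 2 higher and 0 lower of 10 tested in HIF1α-ko, 0 and 3 for HIF2α-ko, and 2 and 3 with both knocked out (20% and 30%). Both calls in HIF1α-ko were lost without HIF1α-ko replicate 2 or 3 or vector replicate 3, and 1 was left without vector replicate 2. In the dual knockout, no filter gave 5 higher and 4 lower of 15 tested. Requiring a mean of at least 5 TPM gave 0 higher and 1 lower of 5 there. ETS1, an Ets-family activator of matrix proteases, was at 178 ± 23.2 TPM in vector and 52.3 ± 4.43 TPM in HIF1α/2α-ko, and fell by -1.75 there (limma adjusted p = 2.27e-06) and by -0.61 in HIF2α-ko (adjusted p = 0.0136). FOXC1, a forkhead factor, rose from 0.278 ± 0.0872 TPM in vector to 1.07 ± 0.331 TPM in HIF1α-ko (0.68, adjusted p = 0.0152) and to 2.66 ± 0.768 TPM with both knocked out (1.5, adjusted p = 3.95e-05), beside 0.189 TPM in HIF2α-ko. Like ZEB1, it entered the test through the groups where it was high, so a difference in their favour was built in. The 17 regulators of the mesenchymal glioma state had 4 higher and 3 lower in HIF1α-ko, 1 and 4 for HIF2α-ko, and 6 and 4 with both knocked out, where the 35.3% higher was near the 31.8% of all genes and 23.5% were lower. RELB, a subunit of NF-κB, rose in all 3 knockouts, from 35.4 ± 3.84 TPM in vector to 98.9 ± 7.62 TPM in HIF1α-ko, 59.4 ± 1.90 TPM in HIF2α-ko and 188 ± 18.8 TPM in HIF1α/2α-ko, where the log2 change was 2.38 (adjusted p = 3.13e-07). TEAD2, a partner of YAP and TAZ, rose from 1.79 ± 1.16 TPM to 8.80 ± 1.21 TPM in HIF1α/2α-ko (1.88, adjusted p = 6.95e-05).

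Cofactors and stability factors of the SNAIL, TWIST and ZEB proteins had 5 higher and 3 lower of 22 tested in HIF1α-ko, 0 and 1 for HIF2α-ko, and 7 and 1 with both knocked out, where the share called higher equalled the 31.8% of all genes. Their 8 calls in HIF1α-ko became 2 and 4 when vector replicates 3 and 2 were left out, and 3 and 5 when replicates 3 and 2 of HIF1α-ko were, with 0 higher in either fit that left out a replicate 3, and with median ratio scaling 1 was higher and 4 lower. For HIF2α-ko the 1 call did not hold when vector replicate 3 or any 1 of its own libraries was left out, and became 3 without vector replicate 1 and 2 without HIF1α/2α-ko replicate 1. The 1 that was lower in the dual knockout was FBXL14, the ubiquitin ligase subunit that marks SNAIL for degradation, which changed in both groups with HIF1α knocked out. It was at 27.1 ± 5.63 TPM in vector, 10.03 ± 0.101 TPM in HIF1α-ko, 27.4 ± 0.810 TPM in HIF2α-ko and 9.63 ± 1.55 TPM in HIF1α/2α-ko, with log2 changes of -1.33 for HIF1α-ko (limma adjusted p = 0.000409), 0.04 for HIF2α-ko (adjusted p = 0.918) and -1.39 for the dual knockout (adjusted p = 4.65e-05). CTBP1, the corepressor that ZEB factors recruit, rose in HIF1α-ko by 0.52 (adjusted p = 0.0292) and in HIF1α/2α-ko by 1.08 (adjusted p = 0.000150). The 8 calls of this list in the dual knockout became 13 without its replicate 1 and 5 without its replicate 2 or 3. Hyaluronan enzymes and CD44 partners had 2 higher and 1 lower of 16 in HIF1α-ko, 0 and 0 for HIF2α-ko, and 2 and 4 with both knocked out (12.5% and 25%). The 3 calls in HIF1α-ko became 6, all higher, without vector replicate 1, 0 without vector replicate 3 and 1 without HIF1α-ko replicate 2 or 3, and HIF2α-ko had 2 without vector replicate 1 and 1 without vector replicate 2. HYAL2, a hyaluronidase, rose from 3.36 ± 1.31 TPM in vector to 18.9 ± 4.39 TPM in HIF1α/2α-ko (2.21, adjusted p = 4.99e-05), and HMMR, another hyaluronan receptor and a mitotic gene, fell from 2.27 ± 0.803 to 0.616 ± 0.181 TPM (-0.99, adjusted p = 0.00419). Of 18 proneural markers, which define the opposite glioma class, 5 were tested, with 0 higher and 1 lower in HIF1α-ko, 0 and 0 for HIF2α-ko, and 2 and 0 with both knocked out. The 2 were NOTCH1, with a rise of 1.67 (adjusted p = 7.87e-06) from 2.51 to 10.1 TPM, and OLIG2, with a rise of 2.31 (adjusted p = 0.000828) from 1.91 ± 0.932 to 13.8 ± 5.84 TPM. With no filter, 15 proneural markers were tested, with 2 higher and 1 lower in HIF1α-ko and 3 and 1 with both knocked out.

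For each of the 7 genes with a group mean of at least 5 TPM, the gene with the most similar pattern was the one with the highest Pearson's r of log2(TPM + 1) over the 12 libraries, which share groups and scaling, so r is given as a description only. VIM was closest to DST (r = 0.978), which encodes the cytolinker dystonin, with means of 34.4, 28.6, 13.7 and 11.2 TPM in vector, the HIF1α and HIF2α knockouts and the dual knockout. SNAI2 was closest to FBXL7 (r = 0.982), an F-box gene at 30.6, 18.4, 16.4 and 22.6 TPM in the same order. CHI3L1 was closest to STAC (r = 0.973), and ZEB2 to SUPT6H (r = 0.940). TWIST1 was closest to B3GNT8 (r = 0.968), which was highest in HIF1α-ko at 3.16 TPM and lowest in HIF2α-ko at 1.05 TPM. CDH2 was closest to TMPO (r = 0.946) and CD44 to TMEM47, with the lowest r of these pairs at 0.826.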

How the data were processed

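The 12 libraries were grouped by their labels. The authors deposited 1 table of TPM values, in which reads are divided by gene length and scaled to a fixed total per library, with no pooling. The submitters' processing notes name FastQC 0.11.2, Trimmomatic 0.36, HISAT2 2.0, bedtools 2.26.0 and the genome build GRCh38. The counter, the annotation and the strand setting are not given in the sources used here. TPM keeps no depth, so no counting error or detection limit was computed, and the columns with no knockout code were taken for vector. Symbols were found for all but 39 of 20263 genes, and positions come from GENCODE 29.

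A linear model was fitted with limma 3.58.1 (R 4.3.3) to log2(TPM + 1) of the 11731 genes that reached 1 TPM in 3 or more libraries, in 1 model of the 4 groups with a mean-variance trend. All adjusted p values are limma p values corrected by Benjamini and Hochberg within a comparison, at a threshold of 0.05. The fit was tested on simulated data. Figures were drawn with matplotlib 3.10.9 under Python 3.11.15, pandas 2.3.3 and numpy 2.4.6.

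The 10 genes and the related lists were chosen with earlier results of these data known, so no p was adjusted over a list alone and no list was tested. Besides the 10 genes, the text names for each list the 2 tested genes of smallest p against vector in HIF1α/2α-ko and, for each of the 10 genes with a group mean of at least 5 TPM, the gene of highest correlation. CLDN4, CLDN7, CDH1, GRHL2, OVOL1 and OVOL2, and the genes of the closing observations, were picked with their values in view. Alternatives were a pseudocount of 0.1, no filter, a mean of at least 5 TPM, quantile normalization, median ratio scaling and no trend. Further ones were a fit restricted to the groups compared, a replicate block and each library left out. A log2 change of at least 1 in size was required only in a recount of calls. It is not among the alternatives counted for single genes. A fit without replicate 1 of any group and the direct comparison of the single knockouts were added after the data were seen.

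Deviations from the group means correlated between same-numbered libraries of the 3 knockout groups (r of 0.196 to 0.508 by Pearson, taken over genes), and on this basis alone the replicate numbers were taken to pair those groups. The main fit held no replicate block, so its p values among the knockout groups leave this pairing out. The block was run as an alternative only. With vector, r was -0.0265 to 0.163, and no pairing was assumed.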

Additional observations from a re-analysis of the deposited data

Results flagged for a closer look

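SNAI2 drew a closer look because its response to the loss of HIF2α differed between cells with HIF1α intact and cells with it knocked out. The change was -1.72 on the log2 scale when HIF1α was intact and 0.32 when it was knocked out, and the difference of 2.04 was tested as the interaction (limma, 3 libraries per group, adjusted p = 0.00625). In all 20 alternatives it was called, between 1.70 and 2.44. ZEB1 did so as well, with a change of -0.09 on loss of HIF2α when HIF1α was intact and of 0.70 when it was knocked out. Its difference of 0.79 (limma adjusted p = 0.0402) was not called without any 1 of 7 libraries, and ZEB1 was tested only because its level was above 1 TPM in the dual knockout. In HIF1A mRNA too the dual knockout lay above HIF1α-ko (0.64, limma adjusted p = 0.0287). No explanation of the difference in SNAI2 or in ZEB1 was tested.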

How the results depend on the processing

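Of 70 fold changes of the 10 genes in 7 comparisons, 26 were called, and 16 of these were called under each alternative that gave them a value. The requirement on the size of a change, given below, is not counted among these alternatives. In 25 cases an alternative changed the sign of a value, and 0 of these were called values. With median ratio scaling and with quantile normalization, in this order, the sign turned for ZEB1 in HIF1α-ko (-0.023 and -0.15), CD44 in HIF2α-ko (0.041 and 0.060), TWIST1 in HIF1α/2α-ko (-0.19 and -0.23) and, for HIF1α/2α-ko against HIF2α-ko, TWIST2 (-0.035 and -0.083) and CDH2 (-0.12 and -0.24). With quantile normalization only, it turned for VIM in HIF1α/2α-ko against HIF2α-ko (0.14) and ZEB1 in HIF1α-ko against HIF2α-ko (-0.040). Without replicate 1 of any group, it turned for CD44 in the dual knockout (0.050) and HIF2α-ko (0.53), and for TWIST1 in the dual knockout (-0.17). With single libraries left out, values that changed sign ran from -0.053 to 0.14 for ZEB1 in HIF1α-ko, -0.39 to 0.36 for CD44 and -0.14 to 0.24 for SNAI1 in HIF2α-ko, -0.11 to 0.17 for TWIST1 in HIF1α/2α-ko, -0.68 to 0.065 for CD44 in HIF1α/2α-ko against HIF2α-ko, and, for the interaction, -0.066 to 0.25 for VIM and -0.29 to 0.025 for TWIST1.

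Numbers of called genes moved by over 1.5 times as follows. Without replicate 1 of any group they were 5 in HIF2α-ko and 4 for the interaction. Requiring a log2 change of at least 1 in size left 1 in HIF2α-ko, 2 in HIF1α/2α-ko, 0 for HIF1α/2α-ko against HIF1α-ko, and 1 each for HIF1α/2α-ko against HIF2α-ko, the interaction and HIF1α-ko against HIF2α-ko. Requiring a mean of at least 5 TPM, which removes SNAI1, TWIST2 and ZEB1, gave 3 in HIF1α/2α-ko, 2 against HIF1α-ko, 3 against HIF2α-ko and 1 for the interaction. Against HIF2α-ko the dual knockout also had 3 with no filter, with median ratio scaling and with quantile normalization. The interaction had 1 with a pseudocount of 0.1. HIF1α-ko against HIF2α-ko had 1 with no filter and 5 in a fit of these groups only. With single libraries left out, the numbers ran from 2 to 5 in HIF2α-ko, 3 to 7 in HIF1α/2α-ko, 2 to 5 and 1 to 5 for HIF1α/2α-ko against HIF1α-ko and HIF2α-ko, 1 to 4 for the interaction and 1 to 4 for HIF1α-ko against HIF2α-ko. The cause was not tested in any of these cases, except that fewer libraries entered and ZEB1 dropped out of the test whenever a dual-knockout library was left out.

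With the replicate block on the 3 knockout groups, 6 genes were called in each of the 3 comparisons among these groups. With vector included, where the correlations of same-numbered libraries did not all pass 0.1 and no pairing was assumed, a replicate block gave 5 for the interaction, 6 in the dual knockout, 7 in HIF1α-ko and 3 in HIF2α-ko.

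The table holds no depth, so for SNAI1, TWIST2 and ZEB1, near 1 TPM, counting error is unknown and the fold change moves with the pseudocount. With 3 libraries per group, intervals were wide where libraries of a group spread, as for CD44 and CHI3L1.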

Other observations

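Further genes of the related lists, chosen after their values were seen, are given by their levels and their changes from vector, and whether the changes differed between knockouts was not tested for any of them. TGFBI, a secreted matrix protein induced by TGF-β, was at 10999 TPM in vector, 14608 TPM in HIF1α-ko, 5071 TPM in HIF2α-ko and 2941 TPM in HIF1α/2α-ko (means of 3 libraries), and fell in the last 2 by -1.12 (limma adjusted p = 0.00198) and -1.89 (adjusted p = 3.21e-06). RUNX1, a regulator of the mesenchymal glioma state, was lower in all 3 knockouts, with 69.8 TPM in vector and 24.1, 23.9 and 26.6 TPM in the HIF1α, HIF2α and dual knockouts, and log2 changes of -1.43 (adjusted p = 0.00285), -1.45 (0.00624) and -1.31 (0.00151). AXL, a receptor tyrosine kinase, was lower in HIF1α-ko by -0.86 (adjusted p = 0.00440) and in HIF1α/2α-ko by -0.87 (adjusted p = 0.00141), with -0.40 in HIF2α-ko (adjusted p = 0.164). CAV1, which encodes caveolin-1, was called lower in HIF1α/2α-ko only (-1.40, adjusted p = 0.000118), with 652 TPM in vector and 249.02 TPM there.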
